A study of Mus musculus with 3 samples.

Results

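Genes of glucose uptake, glycolysis, lactate and pyruvate handling and glycogen metabolism were followed in spatial transcriptome sections of the mouse heart. The group is a list of 36 gene symbols, and all 36 had at least 20 unique molecular identifiers (UMIs, which count captured RNA molecules) over the 3 sections. They stand beside 13883 genes with that many UMIs, of 32285 genes in the files. The data are Visium libraries of 1 section per condition, in which each barcoded spot of a slide captures the transcripts of the tissue above it. All mice were C57BL/6. The sham mouse received vehicle by gavage for 7 days, and at the operation the needle was passed without ligation. In the I/R mouse, vehicle for 7 days was followed by 30 min of ligation of the left anterior descending artery (LAD) and 24 h of reperfusion. The SBP mouse had the same ischemia and reperfusion after 7 days of Shexiang Baoxin Pill, a traditional Chinese medicine that the labels call MUSKARDIA. The comparisons ask how transcripts of these genes differ after I/R, and how they differ when SBP was given before it. No condition had a second section, so no test between conditions was made. All 95% intervals are exact (Poisson, binomial or conditional binomial) and cover counting error only.

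Glycolysis converts glucose to pyruvate in the cytosol. Pyruvate then either becomes lactate, or enters mitochondria and is turned into acetyl-CoA by the pyruvate dehydrogenase complex. The adult heart draws most of its energy from fatty acids, keeps glycogen as a local reserve of glucose, and relies more on glycolysis when oxygen is short, while neutrophils and activated macrophages are strongly glycolytic cells. Many steps have muscle-type and broadly expressed isoforms encoded by separate genes, such as Pgam2 and Pgam1 for phosphoglycerate mutase or Eno3 and Eno1 for enolase.

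The kept spots numbered 1960 to 2234 per section, and they held between 21631280 (SBP) and 30238530 (I/R) UMIs. The median per spot was highest in I/R, at 14672 against 10645 in sham and 10652.5 in SBP. Sections shared 1207 to 1568 spot barcodes in pairs, as Visium slides carry a common barcode set. Levels are UMIs summed over the spots of a section per 1000000 UMIs (CPM). A spot can hold several cells, and fewer cells of a type and less RNA per cell cannot be told apart. The 6 cardiomyocyte markers summed to 20027 CPM in sham, 15229 for I/R and 18428 in SBP, none of them at 0, while 5 skeletal muscle markers summed to between 3.22 and 4.03 CPM, so the tissue matched its heart label. The 11 genes of a myeloid list (macrophage, monocyte and neutrophil markers) summed to 512 CPM in sham, 1262 for I/R and 671 in SBP, also with none at 0. This level moved with many of the differences below, and its part in them was not tested beyond the groupings of spots described later. Eno1 and Gapdh were uncertain, because reads from stretches shared with near-identical genes cannot be told apart and may go uncounted or be misassigned. Of the runs of 50 bases in the last 300 bases of the transcript, Eno1 shared 90.04% with Eno1b, and Gapdh shared 82.9% with Gm10358 and Gm3839, and as much with 96 annotated genes that the files do not list. The other 34 members shared none with a gene of the files.

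Across the pathway, I/R differed from sham in both directions, and 24 of 35 members had an interval wholly below 0 on the log2 scale against 9 wholly above it. Of all genes tested, 13.4% had an interval below 0 and 47.8% above it. An interval is narrower, and excludes 0 more readily, where a gene has more UMIs. Here and below, the shares of all genes were not matched to the members for UMIs. The member left out, the brain-type aldolase gene Aldoc, had 6, 16 and 6 UMIs in sham, I/R and SBP, under the minimum of 50 in the 2 sections compared. The median log2 ratio of I/R over sham was -0.16 for the members and 0.24 for all 12231 genes tested. At a fold of 1.5, 5 members (14.3%) were higher, beside 23.2% of all genes, and 5 (14.3%) were lower, beside 3.49%. Measured from the median gene, 4 were higher (12.7% of all genes) and 14 lower (9.52% of all genes). With TMM factors, which scale on the bulk of genes, 4 were higher (13% of all genes) and 13 lower (9.12%), and with median-of-ratios factors 4 (13.5%) and 12 (8.53%). The 5 higher members were Eno1, Slc16a3, Slc2a1, Pgam1 and Pfkfb3, and the 5 lower ones were Pdha1, Pgam2, Pfkm, Pdk2 and Pygm.

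For SBP over I/R, which shares the I/R section with the first comparison, the median was 0.09 for the members and -0.17 for 12151 genes. Pdha1 was the 1 member higher by 1.5-fold, where 1.95% of all genes were, and Eno1, Slc16a3 and Pgam1 were the 3 lower members, where 13.8% of all genes were. Measured from the median gene, 2 members were higher (4.32% of all genes) and 2 lower (8.27%). TMM factors gave 2 higher (4.14%) and 2 lower (8.48%), and median-of-ratios factors 2 (3.6%) and 2 (9.21%). SBP over sham, which shares a section with each of the other comparisons, had a member median of -0.14 beside 0.08 for all genes. Eno1, Pfkfb3, Slc16a3 and Slc2a1 were higher by that fold (5.31% of all genes) and no member was lower (2.77% of all genes). Measured from the median gene, 4 members were again higher (3.87%) and none was lower (3.96%).

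**Figure D1:**
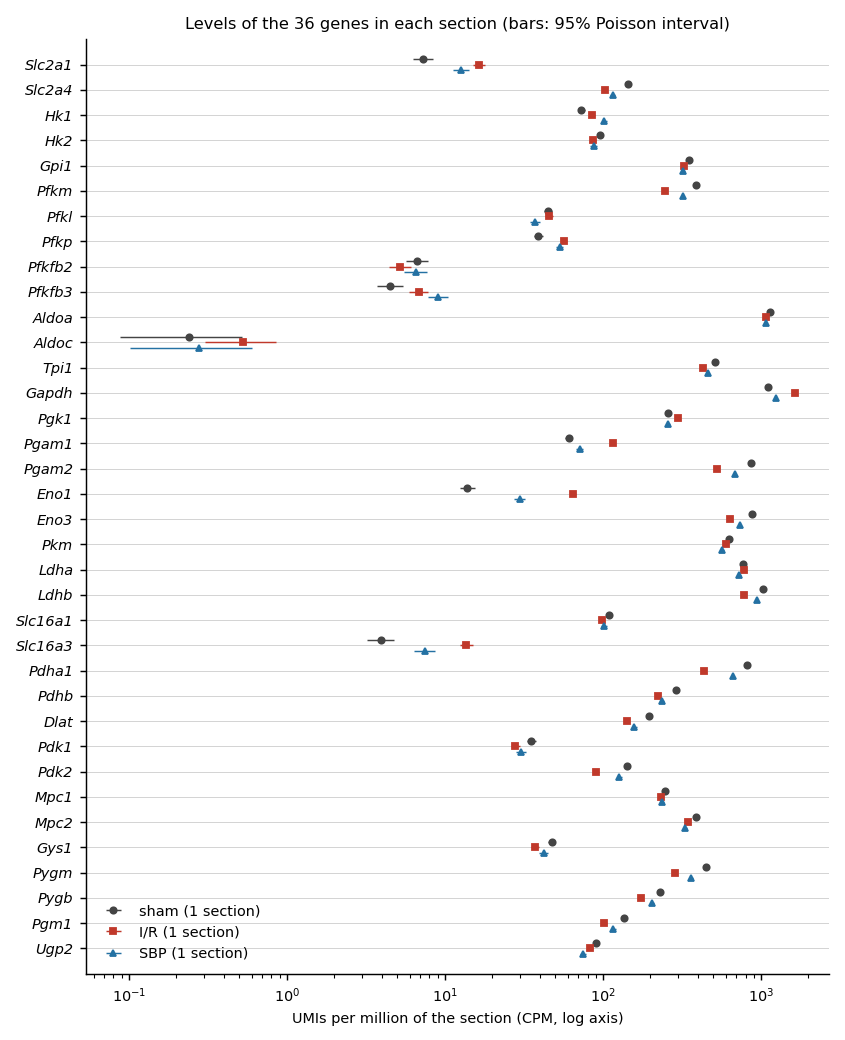
UMIs per 1000000 (CPM, log axis) of the 36 genes in the sham, I/R and SBP section, ordered along the pathway, with points for the 1 section of each condition and bars for the exact 95% Poisson interval. Eno1 lay at 13.9 CPM in sham, 64.9 for I/R and 29.7 in SBP, while Pdha1 lay at 823, 438 and 666 CPM.

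Glucose entry showed opposite levels for its transporters. Slc2a1 (ENSMUSG00000028645, chromosome 4, 119108711 to 119137983, plus strand), which encodes the broadly expressed transporter GLUT1, had 7.33 CPM in sham, 16.5 for I/R and 12.7 in SBP. The log2 ratio was 1.17 (95% counting interval 0.93 to 1.43) for I/R over sham and -0.38 (-0.60 to -0.17) for SBP over I/R. Slc2a4, which encodes the insulin-responsive muscle transporter GLUT4, had 145 CPM in sham, 103 for I/R and 115 in SBP, with ratios of -0.50 and 0.17 in the same order. Sham was thus the lowest section for Slc2a1 and the highest for Slc2a4, with SBP between sham and I/R for both.

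Of the hexokinases, which trap glucose as glucose phosphate, Hk1 had 73.2 CPM in sham, 85.7 for I/R and 102 in SBP, and Hk2, the isoform regulated by insulin in muscle, had 96.2 CPM in sham, 86.7 for I/R and 87.4 in SBP. Hk1 was highest in SBP, with log2 ratios of 0.23 (0.14 to 0.31) for I/R over sham, 0.26 (0.18 to 0.34) for SBP over I/R and 0.49 (0.40 to 0.58) for SBP over sham. Hk2 in I/R and SBP differed by 0.01, and the interval of that ratio (-0.08 to 0.10) included 0. Gpi1, which isomerises glucose phosphate, had 351, 325 and 323 CPM in sham, I/R and SBP.

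At the committed step of glycolysis, the muscle subunit of phosphofructokinase, Pfkm, had 391 CPM in sham, 246 for I/R and 319.8 in SBP, and the log2 ratio of I/R over sham was -0.67 (95% counting interval -0.71 to -0.62). The platelet-type subunit Pfkp had 39.0 CPM in sham, 57.0 for I/R and 53.2 in SBP, a ratio of 0.55 (0.43 to 0.66) in the opposite direction. SBP over I/R was 0.38 (0.33 to 0.43) for Pfkm and -0.10 (-0.21 to 0.01) for Pfkp, where the latter interval included 0. The liver-type subunit Pfkl, at 44.7, 45.6 and 37.3 CPM, was close in sham and I/R (log2 ratio 0.03, interval -0.09 to 0.14) and lower in SBP.

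Pfkfb3 and Pfkfb2 encode bifunctional enzymes that set the level of the main activator of phosphofructokinase. Pfkfb3 rested on few UMIs, 113, 207 and 197 in sham, I/R and SBP, and gave 4.50 CPM in sham, 6.85 for I/R and 9.11 in SBP. It was highest in SBP, with a log2 ratio of 0.61 (0.27 to 0.95) for I/R over sham, 0.41 (0.12 to 0.70) for SBP over I/R and 1.02 (0.68 to 1.36) for SBP over sham. Pfkfb2 lay between 5.23 and 6.69 CPM.

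Among the enzymes from aldolase to phosphoglycerate kinase, Gapdh, the dehydrogenase that reduces NAD, had the widest difference. It had 1116 CPM in sham, 1645 for I/R and 1239 in SBP, and the log2 ratio was 0.56 (95% counting interval 0.54 to 0.58) for I/R over sham and -0.41 (-0.43 to -0.39) for SBP over I/R. Summed with Gm10358 and Gm3839, the ratios were 0.56 and -0.41, the former gene having 0 UMIs in each section. Aldoa, the muscle aldolase, had 1150.2 CPM in sham, 1082 for I/R and 1076 in SBP, and Tpi1, which balances the triose phosphates, had 510.0 CPM in sham, 430.3 for I/R and 463 in SBP. Pgk1, which makes the first ATP of the pathway, had 257 CPM in sham, 299 for I/R and 259 in SBP, with I/R highest by 0.22 over sham, close to the 0.24 of the median gene.

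Of the 5 isoform pairs, those of the mutase and enolase steps differed most between I/R and sham. Pgam1 (ENSMUSG00000011752, chromosome 19, 41911923 to 41918660, plus strand) had 60.7 CPM in sham, 116 for I/R and 71.3 in SBP, and its muscle counterpart Pgam2 (ENSMUSG00000020475, chromosome 11, 5801640 to 5803733, minus strand) had 869.6 CPM in sham, 530.4 for I/R and 684 in SBP. The log2 ratio of I/R over sham was 0.93 (95% counting interval 0.85 to 1.02) for Pgam1 and -0.71 (-0.74 to -0.68) for Pgam2, and for SBP over I/R it was -0.70 (-0.79 to -0.61) and 0.37 (0.33 to 0.40). In I/R the broadly expressed gene was highest of the 3 sections and the muscle gene lowest.

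Eno1 (ENSMUSG00000063524, chromosome 4, 150236721 to 150248879, plus strand), the broadly expressed enolase, had 13.9 CPM in sham, 64.9 for I/R and 29.7 in SBP, from 349, 1963 and 643 UMIs. Its log2 ratio of 2.22 (2.06 to 2.39) for I/R over sham was the largest of the 35 members, and SBP over I/R was -1.13 (-1.26 to -0.998). Together with Eno1b, whose 3′ end it shares and which had 7.76, 11.8 and 10.1 CPM, the ratios were 1.83 (1.69 to 1.963) and -0.95 (-1.06 to -0.83). Eno3 (ENSMUSG00000060600, chromosome 11, 70657202 to 70662513, plus strand), the muscle enolase, had 884 CPM in sham, 637 for I/R and 736 in SBP, with ratios of -0.47 (-0.50 to -0.44) and 0.21 (0.18 to 0.24).

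The windows of 250 bases before the RefSeq transcript starts (GRCm38.p6) of these 4 genes are given because each pair does the same chemical step while its genes differed in opposite directions, and these pairs differed most. For Eno1, which has 3 windows, the one wholly before the annotated gene is shown. Capitals mark ACGTG or GCGTG on either strand, the core letters of the hypoxia response element, so that a match on the opposite strand reads CACGT or CACGC.
Pgam1 (chr19:41911621-41911870, plus strand): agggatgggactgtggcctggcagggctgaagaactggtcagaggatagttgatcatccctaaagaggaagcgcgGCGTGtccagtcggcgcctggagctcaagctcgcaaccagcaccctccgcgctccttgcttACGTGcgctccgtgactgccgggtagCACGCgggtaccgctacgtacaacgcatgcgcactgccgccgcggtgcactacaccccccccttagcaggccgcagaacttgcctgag
Pgam2 (chr11:5803797-5804046, minus strand): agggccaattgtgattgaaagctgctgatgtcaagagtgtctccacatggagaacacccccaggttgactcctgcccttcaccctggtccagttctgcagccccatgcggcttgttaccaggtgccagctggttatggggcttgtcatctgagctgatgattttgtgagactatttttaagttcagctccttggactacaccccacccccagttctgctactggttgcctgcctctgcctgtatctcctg
Eno1 (chr4:150236458-150236707, plus strand): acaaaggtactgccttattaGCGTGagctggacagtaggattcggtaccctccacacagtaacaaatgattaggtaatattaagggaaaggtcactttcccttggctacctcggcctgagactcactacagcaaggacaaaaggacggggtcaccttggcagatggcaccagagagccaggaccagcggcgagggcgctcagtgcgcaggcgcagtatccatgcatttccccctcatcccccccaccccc
Eno3 (chr11:70656926-70657175, plus strand): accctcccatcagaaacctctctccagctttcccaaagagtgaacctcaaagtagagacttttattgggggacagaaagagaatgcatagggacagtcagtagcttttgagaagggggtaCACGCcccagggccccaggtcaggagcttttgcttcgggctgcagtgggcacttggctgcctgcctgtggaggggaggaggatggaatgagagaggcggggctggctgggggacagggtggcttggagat
The Pgam1 window held 3 matches, the Eno1 and Eno3 windows shown 1 each and the Pgam2 window 0. The other 2 Eno1 windows, which overlap each other inside the annotated gene, held 2 matches each. Pfkp and Pfkm, and Hk1 and Hk2 by less, also differed in opposite directions between I/R and sham, and their windows are not shown. The Pfkp window held 3 matches and the Pfkm windows, some of which overlap, 2, 2, 1 and 0. Those of Hk1 held 0 and 3 and that of Hk2 held 2. Of the members, 35 were matched to a RefSeq window (all but Slc2a4), with 53 windows in all, some of which overlap within a gene. ACGTG or GCGTG was found in 40 of these 53 windows (75.5%) and in 38.6% of all 32851 windows of that length. Both strings contain CG, and the windows compared were not matched for base composition. Its part in these shares was not tested. A match in at least 1 window was found for 30 of the 35 members, and the share of all genes was not computed for this count. Members with several windows had more chances of a match, so the count cannot be set beside the share of single windows. A CACGTG counts as a match on each strand. For CANNTG, the E-box, the shares were 62.3% of member windows and 66.2% of all windows. The MEF2 motif was found in 1.89% of member windows, that of Pgam2, and in 2.92% of all. These are letter matches in a window and say nothing about binding.

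At the end of glycolysis, Pkm, the pyruvate kinase gene of muscle and most tissues, had 627 CPM in sham, 600.5 for I/R and 570.3 in SBP. Ldha, the lactate dehydrogenase subunit that prevails in glycolytic tissue, had 774 CPM in sham, 786 for I/R and 733 in SBP, with a log2 ratio of 0.02 (0.00 to 0.05) for I/R over sham whose interval included 0. Ldhb, the subunit that prevails in the heart, had 1039 CPM in sham, 777 for I/R and 945 in SBP, with ratios of -0.42 (-0.44 to -0.39) for I/R over sham and 0.28 (0.26 to 0.31) for SBP over I/R. Ldhb was thus lowest in I/R, while SBP over I/R for Ldha was -0.10 (-0.13 to -0.07).

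Lactate leaves or enters cells through monocarboxylate transporters. Slc16a1, which encodes the widely expressed MCT1, had 109.7 CPM in sham, 98.3 for I/R and 102 in SBP. Slc16a3 (ENSMUSG00000025161, chromosome 11, 120948480 to 120960868, plus strand), which encodes MCT4, the exporter of highly glycolytic cells, had 3.94 CPM in sham, 13.7 for I/R and 7.44 in SBP, from 99, 414 and 161 UMIs. Its log2 ratio was 1.80 (95% counting interval 1.48 to 2.13) for I/R over sham and -0.88 (-1.15 to -0.61) for SBP over I/R, while those of Slc16a1 were -0.16 and 0.06.

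The pyruvate dehydrogenase genes were all lower in I/R than in sham, with intervals below 0, which 13.4% of all genes had. The 6 cardiomyocyte markers were lower as well, with log2 ratios from -0.52 to -0.17 and a median of -0.30. Pdha1 (ENSMUSG00000031299, chromosome X, 160122209 to 160138413, minus strand), the catalytic alpha subunit, had 823 CPM in sham, 438 for I/R and 666 in SBP. The log2 ratio was -0.91 (95% counting interval -0.94 to -0.88) for I/R over sham, the lowest of the 35 members, and 0.60 (0.57 to 0.64) for SBP over I/R, the highest. Pdhb, the beta subunit, had 292, 224 and 238 CPM in the same order of sections, and Dlat, the acetyltransferase core, had 196, 142 and 158 CPM. The ratios of I/R over sham were -0.38 for Pdhb and -0.47 for Dlat, and those of SBP over I/R were 0.09 and 0.15. Subunits of this complex therefore differed in size of change, with Pdha1 beyond the intervals of the other 2 in both comparisons.

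Of the kinases that switch the complex off, Pdk2 had 143 CPM in sham, 91.0 for I/R and 127 in SBP and Pdk1 had 35.4 CPM in sham, 27.9 for I/R and 30.4 in SBP. The I/R over sham ratio was -0.65 (-0.72 to -0.58) for Pdk2 and -0.34 (-0.48 to -0.20) for Pdk1. Pdk2 was higher in SBP than in I/R by 0.48 (0.40 to 0.56). The mitochondrial pyruvate carrier genes Mpc1 and Mpc2 differed less, at 246, 232 and 237 CPM and 389, 346 and 333 CPM in sham, I/R and SBP.

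All 5 glycogen members were lower in I/R than in sham, with intervals below 0, which 13.4% of all genes had. Cardiomyocyte markers were lower too, by a median log2 ratio of -0.30 (range -0.52 to -0.17). Pygm, the muscle phosphorylase that releases glucose from glycogen, had 447 CPM in sham, 285 for I/R and 364 in SBP, with log2 ratios of -0.65 (-0.69 to -0.61) for I/R over sham and 0.35 (0.31 to 0.40) for SBP over I/R. Pygb, the brain-type phosphorylase that the heart also expresses, had 229.6 CPM in sham, 176 for I/R and 206 in SBP. Gys1, the muscle glycogen synthase, had 47.4, 37.2 and 42.4 CPM, Pgm1, which interconverts glucose phosphates, 135, 102 and 116 CPM, and Ugp2, which makes UDP-glucose, 90.1, 83.0 and 74.8 CPM. Their ratios of I/R over sham ran from -0.41 (Pgm1) to -0.12 (Ugp2). Ugp2 was lower again in SBP (-0.15 over I/R), while Pygb, Gys1 and Pgm1 were higher there by 0.23, 0.19 and 0.19.

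**Figure D2:**
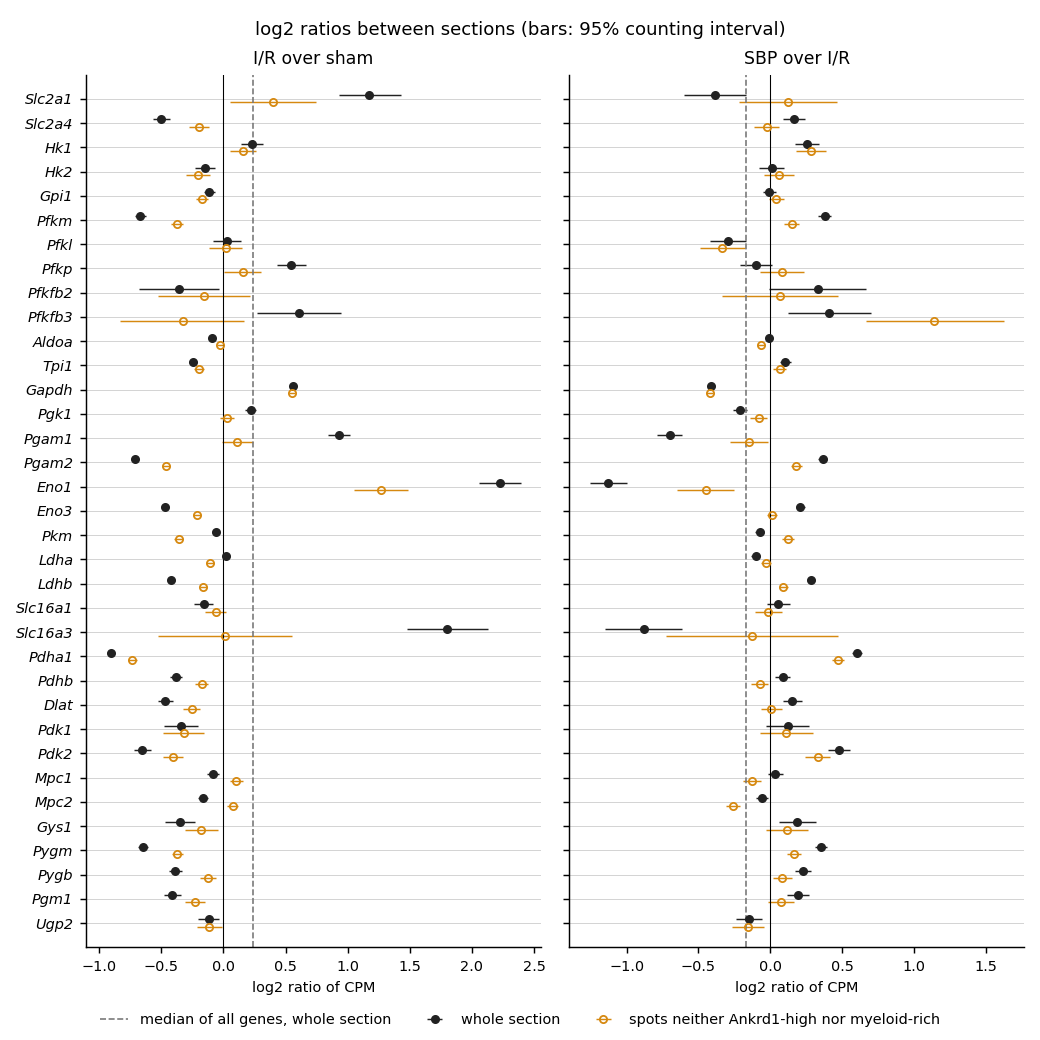
log2 ratios of CPM for 35 members in I/R over sham and SBP over I/R, with bars for the 95% counting interval, filled points for whole sections and open points for spots that were neither Ankrd1-high nor myeloid-rich, and a dashed line at the median of all genes in whole sections. Slc16a3 moved from 1.80 in whole sections to 0.01 in the other spots, while Gapdh stayed at 0.56 and 0.55.

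The share of each isoform within its pair does not depend on the total of the section. Transcripts are counted from their poly(A) ends, so no correction for length was made. Eno1 made up 1.55% (95% interval 1.39 to 1.72) in sham, 9.25% (95% interval 8.86 to 9.64) for I/R and 3.88% (95% interval 3.59 to 4.19) in SBP of the UMIs of Eno1 and Eno3. Pgam1 made up 6.53% (95% interval 6.21 to 6.85) in sham, 17.9% (95% interval 17.4 to 18.5) for I/R and 9.44% (95% interval 8.997 to 9.90) in SBP of Pgam1 and Pgam2. Pfkp made up 9.08% (95% interval 8.54 to 9.63) in sham, 18.8% (95% interval 18.0 to 19.6) for I/R and 14.3% (95% interval 13.5 to 15.0) in SBP of Pfkp and Pfkm. In these 3 pairs the intervals of the sections did not overlap, and SBP lay between sham and I/R. Eno1 shared 90.04% of its 3′-end runs with Eno1b, so its shares here and below may be miscounted, which the intervals do not cover.

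Ldha made up 42.7% (95% interval 42.2 to 43.1) in sham, 50.3% (95% interval 49.9 to 50.8) for I/R and 43.7% (95% interval 43.2 to 44.2) in SBP of the lactate dehydrogenase UMIs. Hk1 differed in its order of sections, with 43.2% (95% interval 41.7 to 44.7) in sham, 49.7% (95% interval 48.3 to 51.1) for I/R and 54.0% (95% interval 52.4 to 55.5) in SBP. The ratio of Hk1 to Hk2 was 1.299 times higher in I/R than in sham and 1.19 times higher in SBP than in I/R, whereas the ratio of Eno1 to Eno3 was 6.48 times higher in I/R than in sham.

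Spots were then grouped by Ankrd1, a titin-binding protein gene induced in stressed cardiomyocytes. Spots above the sham 95th percentile (27.0 Ankrd1 UMIs per 10000) were called Ankrd1-high. They numbered 112 in sham, 479 for I/R (23.0%) and 326 in SBP (16.6%), and the percentile fixes the share in sham. Their median UMIs were 14927, 17348 and 11989.5, against 10501.5, 14103 and 10453 in the other spots. Cardiomyocyte markers summed to 15234, 11400.5 and 13999.5 CPM in Ankrd1-high spots and 20407, 16647 and 19408 in the others, and the myeloid list to 782, 1361 and 964 against 490.1, 1225 and 606. Blood markers summed to 887, 3400 and 2751 CPM in Ankrd1-high spots and 3036, 4352 and 4091 in the others. The 3 fibroblast markers summed to 788, 451 and 353 CPM against 568, 491.5 and 496. Their single log2 ratios ran from -0.52 to 1.54 in sham, -1.04 to 0.57 for I/R and -1.36 to 0.35 in SBP. Smooth muscle and pericyte markers summed to 129, 118 and 102 CPM against 85.8, 92.2 and 83.2. The part of all these levels in the results below was not tested. When myeloid-rich spots were left out, none of the 27 values past 1.5-fold below went under it. The spots left still differed in the myeloid list, at 509, 672 and 597 CPM in Ankrd1-high spots against 366, 379 and 360.3 in the others. Leaving spots out therefore did not even out the myeloid level and cannot show its part.

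Within each section, 7 of the 35 members had an interval above 0 for Ankrd1-high over other spots in all 3 sections, as did 15.0% of 10273 genes, and 14 had an interval below 0, as did 3.45%. The genes were not matched to the members for UMIs. The 7 higher members were Slc2a1, Hk1, Pfkp, Pgk1, Pgam1, Eno1 and Slc16a3. The 14 lower ones were Pfkm, Aldoa, Tpi1, Gapdh, Pgam2, Eno3, Ldhb, Pdha1, Pdhb, Dlat, Pdk2, Mpc2, Gys1 and Pygm. The member median was -0.18 in sham, -0.14 for I/R and -0.08 in SBP, beside 0.31, 0.24 and 0.21 for all genes. At a fold of 1.5, 6, 5 and 5 members were higher (28.3%, 13.6% and 16.6% of all genes) and 1, 5 and 5 were lower (6.08%, 3.88% and 5.02%). Measured from the median gene of each section, 2, 2 and 5 members were higher (12.1%, 4.39% and 7.23% of all genes) and 12, 13 and 9 lower (13.6%, 8.68% and 9.75%).

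Slc2a1 showed the gradient well, with 15.7 against 6.66 CPM in sham, 24.5 against 13.6 CPM for I/R and 20.9 against 10.8 CPM in SBP for Ankrd1-high against other spots. The log2 ratios in sham, I/R and SBP were 1.24, 0.85 and 0.95 for Slc2a1, 0.88, 0.78 and 0.82 for Pfkp and 0.81, 0.64 and 0.82 for Pgam1. They were 0.71, 0.76 and 0.99 for Eno1 and 1.17, 0.97 and 1.07 for Slc16a3, which rested on 15 UMIs in the sham Ankrd1-high spots. In sham Ankrd1-high spots, Slc2a1 had 29 UMIs (interval 0.61 to 1.82) and Eno1 40 (0.19 to 1.19). In the sham heart as in the injured ones, these genes were higher where Ankrd1 was high. The median gene was higher too, by 0.31, 0.24 and 0.21. Measured from it, ratios were 0.93, 0.61 and 0.74 for Slc2a1, 0.57, 0.54 and 0.62 for Pfkp and 0.50, 0.40 and 0.62 for Pgam1. Those of Eno1 were 0.40, 0.52 and 0.78 and those of Slc16a3 0.86, 0.73 and 0.86.

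Eno3 was lower, at 455 against 918 CPM in sham, 422 against 717 CPM for I/R and 516 against 785 CPM in SBP. Its log2 ratios were -1.01, -0.76 and -0.61, and those of Pfkm were -0.43, -0.82 and -0.50. Ratios were -0.57, -0.62 and -0.46 for Ldhb, -0.48, -0.64 and -0.60 for Pygm and -0.18, -0.70 and -0.64 for Slc2a4, where the sham interval included 0. Among the pyruvate dehydrogenase genes, Pdha1 had -0.35, -0.38 and -0.32 and Pdk2 -0.33, -0.53 and -0.68, while the carrier gene Mpc2 had -0.53, -0.58 and -0.28 and the glycogen synthase gene Gys1 -0.43, -0.39 and -0.64. Pygb was the 1 glycogen gene with an interval above 0 in sham and below 0 in the other sections, higher in Ankrd1-high spots of sham (log2 ratio 0.42) and lower in those of I/R and SBP (-0.36 and -0.33).

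**Figure D3:**
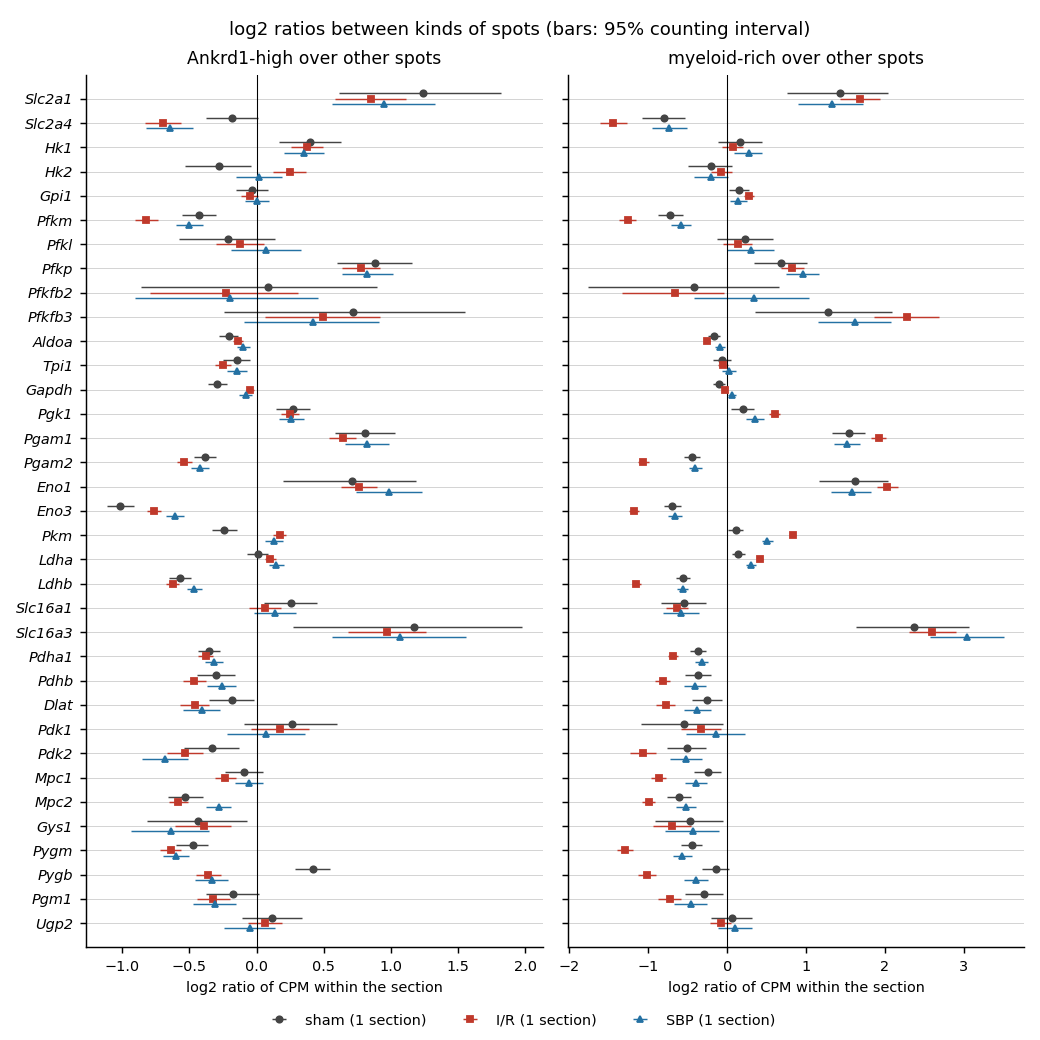
log2 ratios of CPM within each section for 35 members, Ankrd1-high over other spots on the left and myeloid-rich over other spots on the right, with points for the 1 section of each condition and bars for the 95% counting interval. Slc2a1, Pfkp, Pgam1, Eno1 and Slc16a3 lie to the right of 0 in each section under both groupings, and Pfkm, Pgam2, Eno3 and Ldhb to the left.

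In 4 bands of Ankrd1, cut at the sham 50th, 80th and 95th percentiles, the shares of Eno1, Pfkp, Pgam1 and Ldha rose from the lowest to the highest band. In sham the Eno1 intervals overlapped on either side of the 50th and of the 95th percentile. Those of Ldha overlapped on either side of the 95th percentile in each section. The bands were not divided by the myeloid list, and its part in these shares was not tested. The Eno1 share was 1.12%, 1.27%, 3.07% and 4.55% from the lowest to the highest band in sham, 3.59%, 7.09%, 13.7% and 18.0% for I/R and 1.68%, 2.89%, 6.26% and 8.84% in SBP. The Pfkp share ran from 6.94% to 18.6% in sham, 10.0% to 34.2% for I/R and 8.12% to 25.7% in SBP, and the Pgam1 share from 5.06% to 12.9%, 7.78% to 28.2% and 5.31% to 17.1%. For Ldha, the lowest band held 39.3% in sham, 39.3% for I/R and 36.3% in SBP, and the highest 52.0%, 59.8% and 52.4%. The Hk1 share was highest in the top band of sham (54.0%) but in the band before it in I/R (54.5% against 51.2%) and SBP (60.1% against 58.5%), with overlapping intervals in both.

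**Figure D4:**
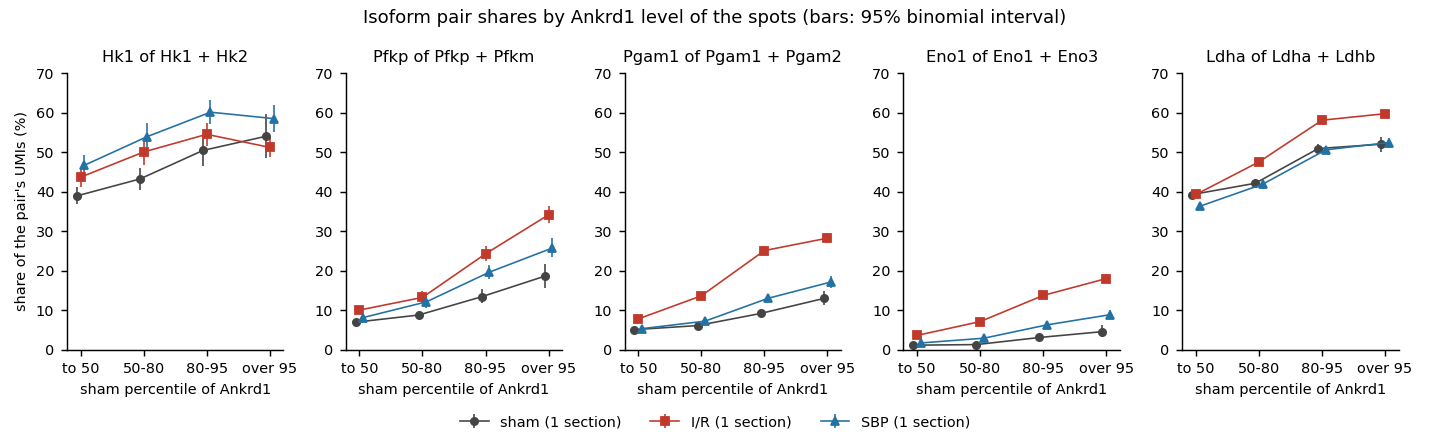
Share of the pair's UMIs (percent) taken by Hk1, Pfkp, Pgam1, Eno1 and Ldha in 4 bands of Ankrd1 per 10000 UMIs set by sham percentiles, with lines for the 1 section of each condition and bars for the exact 95% binomial interval. From the lowest to the highest band the Eno1 share went from 1.12% to 4.55% in sham, 3.59% to 18.0% for I/R and 1.68% to 8.84% in SBP.

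A second grouping used the myeloid list in place of Ankrd1. Spots above the sham 95th percentile of its sum (13.7 per 10000 UMIs) were called myeloid-rich, and they numbered 112 in sham, 610 for I/R (29.3%) and 272 in SBP (13.9%). Of these, 18, 192 and 81 were also Ankrd1-high. Mitochondrial transcripts made up 37.1%, 28.9% and 36.3% of UMIs in myeloid-rich spots and 49.3%, 48.9% and 47.6% in the others, and cardiomyocyte markers summed to 14346, 7862 and 13199 CPM against 20359, 17414 and 19104. Median UMIs per spot were 12126.5, 10071.5 and 9032 against 10600, 15397.5 and 10809. Endothelial markers summed to 122, 200 and 142 CPM against 113, 114 and 114. Smooth muscle and pericyte markers summed to 152, 149 and 130 CPM against 85.3, 84.3 and 80.9. The part of these levels in the ratios below was not tested.

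Intervals were above 0 for 10 of 35 members in all 3 sections (35.4% of 10273 genes) and below 0 for 16 (3.47%), again without matching for UMIs. The 10 higher members were Slc2a1, Gpi1, Pfkp, Pfkfb3, Pgk1, Pgam1, Eno1, Pkm, Ldha and Slc16a3, and the 16 lower ones were Slc2a4, Pfkm, Aldoa, Pgam2, Eno3, Ldhb, Slc16a1, Pdha1, Pdhb, Dlat, Pdk2, Mpc1, Mpc2, Gys1, Pygm and Pgm1. The member median was -0.21 in sham, -0.33 for I/R and -0.14 in SBP, beside 0.56, 0.84 and 0.50 for all genes. By 1.5-fold, 6, 8 and 6 members were higher (48.8%, 63.0% and 44.5% of all genes) and 4, 17 and 2 lower (4.63%, 7.79% and 4.31%). Measured from the median gene, 5 members in each section were higher (19.9%, 21.1% and 16.4% of all genes) and 22, 25 and 19 lower (19.2%, 24.0% and 17.8%).

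Slc16a3 had the highest ratio of the 35 members compared in each section, with 16.6 against 3.20 CPM in sham, 38.5 against 6.35 CPM for I/R and 33.5 against 4.07 CPM in SBP for myeloid-rich against other spots. The log2 ratios were 2.38, 2.60 and 3.04 for Slc16a3, 1.28, 2.27 and 1.62 for Pfkfb3 and 1.62, 2.03 and 1.58 for Eno1. Those of Pgam1 were 1.55, 1.92 and 1.52 and those of Slc2a1 1.43, 1.68 and 1.32. In sham myeloid-rich spots, Slc16a3 had 23 UMIs (interval 1.63 to 3.06), Pfkfb3 14 (0.35 to 2.09) and Slc2a1 25 (0.76 to 2.05). The sham interval of Slc16a3 overlapped these and those of Eno1 (1.17 to 2.04) and Pgam1 (1.33 to 1.75). In I/R it overlapped that of Pfkfb3 (2.30 to 2.90 and 1.86 to 2.69). Its first rank in these 2 sections is therefore within counting error. Pkm was higher by 0.11, 0.83 and 0.51 and Ldha by 0.14, 0.42 and 0.31, beside 0.56, 0.84 and 0.50 for the median gene, while Ldhb was lower (-0.56, -1.15 and -0.57).

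Slc2a4, Pygm, Pfkm, Eno3 and Ldhb were lower in the myeloid-rich spots of I/R than in those of sham and SBP. There Slc2a4 had 44.1 against 119.9 CPM, Pygm 134 against 329 CPM, Pfkm 119 against 284 CPM, Eno3 322 against 731 CPM and Ldhb 400.1 against 889 CPM. The log2 ratio was -1.44 for Slc2a4 and -1.298 for Pygm, where the median cardiomyocyte marker had -1.13. Pdha1 differed less, with 298 against 479.9 CPM and a ratio of -0.69, as did the muscle aldolase Aldoa, with 943 against 1123 CPM and -0.25. The mitochondrial pyruvate carrier genes Mpc1 and Mpc2 had -0.87 and -0.997.

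When spots were divided by both groupings, the Eno1 share in sham, I/R and SBP was 1.27%, 3.46% and 2.54% in spots of neither kind, 4.02%, 12.8% and 6.94% in spots that were Ankrd1-high only, 6.20%, 35.0% and 11.3% in those that were myeloid-rich only and 7.52%, 29.1% and 16.4% in those that were both. The sham share in spots that were both rested on 10 Eno1 UMIs in 18 spots. Its interval (3.66 to 13.4%) included the sham shares of 4.02% and 6.20%. For Pgam1, the shares were 5.55%, 8.05% and 6.52% in neither kind, 10.997%, 20.9% and 15.3% in Ankrd1-high only and 18.5%, 52.2% and 24.5% in myeloid-rich only. The Ldha share was 41.6%, 42.6% and 40.5% in neither kind and 53.7%, 73.0% and 57.7% in myeloid-rich only. Ankrd1-high spots that were not myeloid-rich had higher Eno1 and Pgam1 shares than spots of neither kind in each section, but they also differed in markers. The myeloid list summed to 509, 672 and 597 CPM in them against 366, 379 and 360.3 in spots of neither kind, and cardiomyocyte markers to 15609, 12850.2 and 14412 against 20692, 18751 and 19997. The part of these levels in the shares was not tested.

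**Figure D5:**
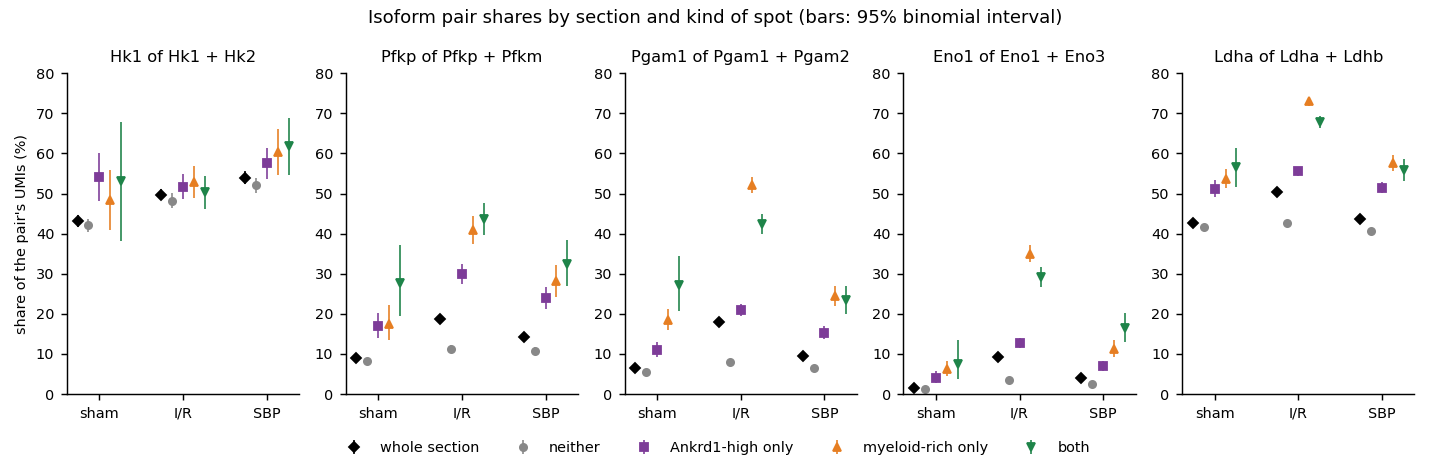
Share of the pair's UMIs (percent) taken by Hk1, Pfkp, Pgam1, Eno1 and Ldha in whole sections and in spots that were neither Ankrd1-high nor myeloid-rich, Ankrd1-high only, myeloid-rich only or both, for the 1 section of each condition with exact 95% binomial intervals. The Eno1 share in I/R was 3.46% in spots of neither kind, 12.8% in Ankrd1-high only and 35.0% in myeloid-rich only.

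The whole-section differences were then recomputed in the spots of neither kind, 2028 in sham, 1185 for I/R and 1443 in SBP, a choice made after the whole-section values were seen. There the myeloid list summed to 366, 379 and 360.3 CPM and cardiomyocyte markers to 20692, 18751 and 19997. The median gene was at -0.03 for I/R over sham and the member median at -0.16, with 1 member higher by 1.5-fold (3.12% of 11333 genes) and 1 lower (3.69%). Eno1 was the higher one, at 12.0, 28.9 and 21.2 CPM in sham, I/R and SBP (log2 ratio 1.27, interval 1.05 to 1.49), and Pdha1 the lower one, at 845, 507 and 703 CPM (-0.74, interval -0.77 to -0.70). Gapdh kept its size, with 1135, 1664 and 1242 CPM and a ratio of 0.55 (0.53 to 0.58).

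Others were smaller in these spots than in the whole section. Slc16a3 had 3.02, 3.05 and 2.80 CPM (I/R over sham 0.01, interval -0.53 to 0.55), Pgam1 52.5, 56.7 and 51.2 CPM (0.11, interval -0.01 to 0.23) and Slc2a1 6.13, 8.09 and 8.82 CPM (0.40, interval 0.05 to 0.75). Pfkfb3 had 3.97, 3.16 and 6.96 CPM, and its ratio of -0.33 (-0.84 to 0.17) had the opposite sign to the whole section. Among the lower members, Pgam2 had -0.46, Pdk2 -0.41, Pfkm -0.37 and Pygm -0.37, each with an interval below 0. Pkm, which was close to sham in the whole I/R section, had 632, 492 and 537 CPM here and a ratio of -0.36 (-0.40 to -0.32).

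For SBP over I/R in spots of neither kind, the median gene was at 0.05 and the member median at 0.06. Pfkfb3 was the 1 member past 1.5-fold, and it was higher (3.4% of 11051 genes), with a ratio of 1.14 (0.67 to 1.63) from 57 UMIs in I/R and 112 in SBP. No member was lower by that fold (2.39% of genes). Pdha1 was at 0.47 (0.43 to 0.51), Gapdh at -0.42 (-0.45 to -0.40) and Eno1 at -0.45 (-0.65 to -0.25). Slc16a3 and Slc2a1, at -0.12 (-0.73 to 0.47) and 0.12 (-0.22 to 0.47), had intervals that included 0. SBP over sham in these spots had a median gene at 0.03 and a member median of -0.13, with Eno1 (log2 ratio 0.82) and Pfkfb3 (0.81) higher by 1.5-fold (3.39% of 11249 genes) and none lower (2.63%).

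Of 45 other genes of the pathway, 42 had at least 20 UMIs. In I/R over sham, 41 passed the minimum of 50 UMIs, 7 were higher by 1.5-fold (23.2% of all genes) and 6 lower (3.49%), with a median of -0.05. In SBP over I/R, none was higher (1.95% of all genes) and 9 were lower (13.8%). The largest ratios among those with at least 200 UMIs were for Emb, a partner protein of the lactate transporters, with 4.98 CPM in sham, 15.0 for I/R and 7.44 in SBP, and for Pygl, the liver-type phosphorylase, with 2.95 CPM in sham, 7.67 for I/R and 3.84 in SBP. Their log2 ratios were 1.59 (1.304 to 1.89) and 1.38 (0.998 to 1.78) for I/R over sham and -1.01 (-1.28 to -0.75) and -0.9997 (-1.38 to -0.63) for SBP over I/R, and in I/R both were higher in myeloid-rich spots, by 3.43 and 2.49. Pdk4, a pyruvate dehydrogenase kinase induced by fasting and glucocorticoids, had 41.1 CPM in sham, 21.5 for I/R and 12.0 in SBP, with log2 ratios of -0.94 (-1.08 to -0.80) for I/R over sham and -0.84 (-1.05 to -0.63) for SBP over I/R. SBP over sham was -1.77 (-1.98 to -1.58) for Pdk4, -0.93 (-1.304 to -0.57) for Phkg1, a phosphorylase kinase subunit, and -0.72 (-0.96 to -0.49) for Pdp2, a phosphatase that activates pyruvate dehydrogenase. Pgm2, a phosphopentomutase, had 2.47, 5.09 and 2.73 CPM in sham, I/R and SBP, a ratio of 1.04 (0.61 to 1.49) for I/R over sham.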

How the data were processed

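Spatial libraries were analysed from 3 hearts, with 1 section for each of sham, I/R and SBP. The deposited values are UMI counts for every gene in each spot over tissue, which the authors made with Space Ranger 1.3.0 on mm10 per the submitters' processing notes, without normalization. Transcripts are captured by their poly(A) ends, so levels were not divided by gene length. A spot was kept if it had at least 200 detected genes, which removed 6 spots in all. UMIs were summed over spots and divided by the total of the section (CPM). With totals of 21631280 to 30238530 UMIs, 10 CPM stands for over 200 UMIs.

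Ratios of CPM between sections, or between kinds of spots of 1 section, were taken on the log2 scale for all genes with at least 50 UMIs in the 2 libraries compared, with exact conditional binomial 95% intervals. Shares had exact Clopper-Pearson intervals. They cover counting error only. No p-value was computed, since each condition had 1 section and spots are not replicates. The interval was checked on simulated Poisson counts without variation between sections or spots, so the check concerns counting error only. Values named were those of the genes of the 5 pairs and, in each comparison, the 8 members with the largest absolute log2 ratio among those with at least 200 UMIs, and for the other pathway genes the 4 largest. Some members named for 1 section were also given for others where they had under 200 UMIs, such as Slc16a3 in sham. Further members were described by role, and Pgk1, Pkm, Pygb and the carriers were chosen after their values were seen. The members, the gene lists and the groupings were chosen with earlier results of these data known. No clustering was run.

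Gene positions were taken from GENCODE M21 (GRCm38), and promoter windows from RefSeq (GRCm38.p6). Alternatives were UMIs without the 13 mitochondrial genes, TMM and median-of-ratios factors, equal weight per spot, other spot filters, a fold of 1.2, other thresholds for both groupings and, added after seeing the data, spots outside the groupings. The work used Python 3.11.15 with scipy 1.17.1, numpy 2.4.6, matplotlib 3.10.9 and pandas 2.3.3, and edgeR 4.0.16 in R 4.3.3 for TMM.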

Additional observations from a re-analysis of the deposited data

Results flagged for a closer look

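Some members differed in direction between sections for the same contrast of spots, with an interval above 0 in a section and below 0 in another. None of these differences was tested, since each section stands alone. Pygb, the brain-type glycogen phosphorylase, had a log2 ratio above 0 between Ankrd1-high and other spots of sham (0.42, 299 against 224 CPM) and below 0 in I/R (-0.36, 146 against 187 CPM) and SBP (-0.33, 169 against 214 CPM). The difference from sham was -0.78 for I/R and -0.75 for SBP.

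Pkm, the pyruvate kinase gene, was lower in Ankrd1-high spots of sham (-0.24) and higher in those of I/R (0.17) and SBP (0.13), which makes differences of 0.41 and 0.37. Hk2 was lower in Ankrd1-high spots of sham (-0.28) and higher in those of I/R (0.25), a difference of 0.53. Gapdh was lower in myeloid-rich spots of sham (-0.10) and higher in those of SBP (0.07), a difference of 0.17. Measured from the median gene, Pkm was below 0 in sham, I/R and SBP (-0.55, -0.07 and -0.08). Gapdh was likewise below 0 in sham and SBP (-0.67 and -0.44), and Hk2 had -0.59 in sham and 0.005 in I/R. On this measure Pygb had 0.11, -0.60 and -0.54 in sham, I/R and SBP. Ankrd1-high spots held myeloid markers at 782 CPM in sham and 1361 CPM in I/R, and fibroblast markers at 788 and 451 CPM. The part of these levels in the differences was not tested.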

How the results depend on the processing

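No paired analysis was possible because there was 1 section per condition. Scaling moved every ratio between sections together. For I/R over sham the shift was -0.12 on the log2 scale without mitochondrial genes, -0.23 with TMM and -0.22 with median-of-ratios factors, and the member median became -0.27, -0.39 and -0.37. For SBP over I/R the shifts were 0.05, 0.16 and 0.13 and the medians 0.14, 0.24 and 0.22. For SBP over sham, median-of-ratios factors gave -0.22. Members lower by 1.5-fold in I/R numbered 13 with TMM and 12 with median-of-ratios factors, and 2 were higher in SBP over I/R with either. At a fold of 1.2, 15 members were lower in I/R over sham (12.8% of all genes), 8 were higher (9.47%) and 6 lower (38.6%) in SBP over I/R, and 10 were lower in SBP over sham (1294 of 11768 genes). Without mitochondrial genes the medians of myeloid-rich over other spots were -0.52, -0.81 and -0.42 in sham, I/R and SBP.

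With equal weight for each spot, the share in sham was 8.53% for Pfkp, 6.20% for Pgam1 and 41.95% for Ldha, and in I/R it was 19.8% for Pfkp, 20.02% for Pgam1, 10.2% for Eno1 and 52.1% for Ldha. In spots neither Ankrd1-high nor myeloid-rich, chosen after seeing the data, shares in sham, I/R and SBP were 8.15%, 11.3% and 10.8% for Pfkp, 5.55%, 8.05% and 6.52% for Pgam1, 1.27%, 3.46% and 2.54% for Eno1 and 41.6%, 42.6% and 40.5% for Ldha, and Hk1 had 48.2% in I/R and 52.0% in SBP. With the Ankrd1 threshold at the sham 90th percentile, the Pfkp share in Ankrd1-high spots of I/R was 31.9%. At the 99th percentile it was 22.2%, 36.6% and 28.7% in sham, I/R and SBP, and the Hk1 share in I/R was 47.5%.

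Of 18 values past 1.5-fold between sections, 14 were no longer past it in the spots of neither kind, and 2 changed sign, namely Pfkfb3 in I/R over sham (-0.33) and Slc16a3 in SBP over sham (-0.11). Of all genes, whole sections and these spots had 23.2% and 3.12% higher and 3.49% and 3.69% lower in I/R over sham by that fold. SBP over I/R had 1.95% and 3.4% higher and 13.8% and 2.39% lower. SBP over sham had 5.31% and 3.39% higher and 2.77% and 2.63% lower. For Pfkfb3, Ankrd1-high over other spots in sham was -0.15 at the 99th percentile, which left 23 spots. That threshold took 6 of 27 values of Ankrd1-high over other spots below 1.5-fold, and the threshold at the 90th percentile took 1. With the myeloid threshold at the sham 90th percentile, 9 of 43 values of myeloid-rich over other spots went below it. TMM and median-of-ratios factors each took 2 of the 18 below the fold. Leaving out myeloid-rich spots took 0 of 27 values of Ankrd1-high over other spots below it, but the spots left still differed in the myeloid list. In these alternatives the cause was not tested. A gene under 10 CPM, such as Pfkfb3, has wide counting intervals at this depth.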

Other observations

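A list of 13 hypoxia-related genes outside the pathway, with Hif1a among them, was compared, and 12 passed the minimum of 50 UMIs. Their median log2 ratio in I/R over sham was 0.09 and in SBP over I/R 0.05, where all genes had 0.24 and -0.17. Hif1a, the hypoxia-inducible factor subunit, was the 1 listed gene higher by 1.5-fold in I/R over sham, where 23.2% of all genes were. It had 42.0 CPM in sham, 65.4 for I/R and 56.3 in SBP, and it was higher in myeloid-rich spots of I/R by 1.61. Egln3, an oxygen-dependent hydroxylase gene that the factor induces, had 24.3 CPM in sham, 19.3 for I/R and 20.3 in SBP, and Vegfa 49.0 CPM in sham, 45.8 for I/R and 43.5 in SBP. In myeloid-rich over other spots the list median was 0.47 in sham, 0.66 for I/R and 0.57 in SBP, beside 0.56, 0.84 and 0.50 for all genes.

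Genes named here other than Hif1a were chosen after their values were seen. Hk3, the hexokinase of blood cells, had 1.83 CPM in sham, 4.27 for I/R and 2.13 in SBP. In myeloid-rich over other spots of I/R its log2 ratio was 3.54, beside 0.84 for the median gene. In sham and SBP, Hk3 had fewer UMIs than the minimum set for a ratio. Bsg, the partner protein of the lactate transporters in heart muscle, had 1029 CPM in sham, 726 for I/R and 950.0 in SBP, with log2 ratios of -0.50 (-0.53 to -0.48) for I/R over sham and 0.39 (0.36 to 0.41) for SBP over I/R.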
